A study of Mus musculus with 3 samples.

Results

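A set of 10 genes that mark macrophage polarization and tissue residence was followed through the myeloid cells of mouse kidneys after folic acid (FA) injury: *Mrc1*, *Cd163*, *Arg1*, *Retnla*, *Chil3*, *Nos2*, *Folr2*, *Lyve1*, *Timd4* and *Cd81*. The genes were chosen by name as markers of these programmes, with earlier results of these data known. All 10 were found by symbol among the 27998 genes of the files. Kidneys came from 2 Aoah-/- mice (replicates 2 and 3) and 1 wild-type (WT) mouse (replicate 3), aged 6 to 8 weeks by the labels and collected on day 14 of the FA model, and each mouse gave 1 droplet scRNA-seq library. The Aoah-/- allele is a germline knockout on a C57/BL6J background, so every cell of these mice carries it, and the controls were WT littermates. Every mouse had received FA, and no kidney without FA is among these libraries.

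Macrophages in tissues adopt programmes that are named after the signals that evoke them. Interferon-gamma and bacterial products induce *Nos2*, the inducible nitric oxide synthase of the M1-like state. Interleukin-4 and interleukin-13, acting through STAT6, induce *Arg1* (arginase, which consumes the arginine that *Nos2* uses), *Retnla* (a secreted resistin-like protein), *Chil3* (a secreted chitinase-like protein) and *Mrc1* (the mannose receptor CD206). Other members mark residence: *Timd4* binds phosphatidylserine on dying cells, *Folr2* is a folate receptor, *Lyve1* binds hyaluronan, *Cd163* takes up haemoglobin bound to haptoglobin, and the tetraspanin *Cd81* is high in resident macrophages of the kidney. The study used these libraries to look for mechanisms behind the effect of *Aoah* deletion and distinguished resident and infiltrating macrophages in them.

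The promoters of *Retnla* and *Chil3* are shown because both genes had lower levels in the peritoneal-like macrophages of the Aoah-/- mice and both are textbook targets of interleukin-4. In Aoah-/- replicate 3 both levels rest on few counts, those of *Retnla* in a single cell. The *Chil3* level of that mouse was not clear of the WT level, and the direction for *Chil3* turned under 1 alternative, as given below. The sequences are those of RefSeq on GRCm38.p6, read 5′ to 3′ along the gene, and 7 of the 10 members had an entry. Of the 250 bases before the RefSeq start of *Retnla*, the 192 that lie outside the annotated gene are printed (chr16:48842359-48842550, plus strand). For *Chil3* all 250 bases are printed (chr3:106167565-106167814, minus strand). Capitals mark matches to TTC and GAA with 4 bases of any kind between them (the STAT6 motif), TTGCNNAA (C/EBP) or GAGGAAGT (PU.1), each searched on both strands in all 250 bases.
Retnla: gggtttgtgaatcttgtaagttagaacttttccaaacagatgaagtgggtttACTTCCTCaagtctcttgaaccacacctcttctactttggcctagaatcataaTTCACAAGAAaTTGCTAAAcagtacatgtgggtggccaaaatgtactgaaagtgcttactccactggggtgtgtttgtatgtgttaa
Chil3: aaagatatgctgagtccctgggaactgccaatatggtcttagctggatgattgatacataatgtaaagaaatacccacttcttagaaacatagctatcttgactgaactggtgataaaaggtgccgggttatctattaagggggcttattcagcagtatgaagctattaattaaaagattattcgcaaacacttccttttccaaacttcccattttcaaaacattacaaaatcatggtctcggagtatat
*Retnla* held 1 match to each of the 3 motifs: a PU.1 match (ACTTCCTC on the strand shown) beginning 198 bases before the start, a STAT6 match (TTCACAAGAA) at 145 and a C/EBP match (TTGCTAAA) at 134, separated from the STAT6 match by a single base. *Chil3* held none of the 3, nor did the windows of *Mrc1*, *Cd163*, *Folr2*, *Timd4* and *Cd81*. Among 32851 promoter windows of the same length, 5.85% held the STAT6 motif, 9.56% the C/EBP motif and 2.44% the PU.1 motif. The NF-kB motif, GGG and CC with 5 bases of any kind between them, was present in 45.8% of all windows, in those of *Mrc1*, *Cd163*, *Chil3* and *Cd81* among the members, and not in that of *Retnla*. These are letter matches only.

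The droplet assay gives every captured RNA molecule a tag for its cell and a tag of its own, the unique molecular identifier (UMI). Levels are UMIs of a gene per 1000000 UMIs (CPM), summed over the cells of a class, and they are counts of 3′ ends that are not scaled for gene length. Kept cells numbered 21368 in Aoah-/- replicate 2, 19692 in Aoah-/- replicate 3 and 18202 in the WT mouse, from libraries of 158551992 to 167222984 UMIs. Barcodes down to 500 UMIs were called as cells in Aoah-/- replicate 2 and the WT mouse, but only down to 1672 UMIs in Aoah-/- replicate 3. Between 171 and 176 barcodes were shared by each pair of libraries, and 20 of the 1405 peritoneal-like and 47 of the 3533 C1q macrophage-like cells had such a barcode. *Aoah* itself had 6.06 and 5.68 CPM in Aoah-/- replicates 2 and 3 and 15.3 CPM in the WT library, so the order followed the labels although UMIs of the gene remained in the knockouts. Which part of the gene is deleted is not given in the sources used here, and 3′ reads need not come from it. Where 3 values are given in a row, they follow this order (Aoah-/- replicate 2, Aoah-/- replicate 3, WT). With 1 WT library no test across mice was made, all intervals are 95% intervals for counting error only, and a difference has no replicate check on the WT side.

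Among the kept cells, 4823, 3021 and 2785 were myeloid, and they were divided into classes by markers that include none of the 10 members. Peritoneal-like macrophages numbered 1320, 13 and 72 cells, which is 27.4% (26.1 to 28.7), 0.430% (0.229 to 0.735) and 2.59% (2.03 to 3.24) of the myeloid cells. C1q macrophage-like cells numbered 1282, 954 and 1297, or 26.6%, 31.6% and 46.6%. Of these, 628, 58 and 770 lay in a subcluster with a median of 693 UMIs per cell. A further subcluster of 61, 256 and 36 cells had C1q macrophage as its best match but also proximal tubule markers, and it was left unnamed. The part of cell calling and naming in the C1q shares was not tested. The peritoneal-like share minus that of the WT mouse was 24.8 percentage points for Aoah-/- replicate 2 and -2.15 for Aoah-/- replicate 3, so it did not follow the genotype. Monocyte-like cells numbered 360, 393 and 258, of which 204, 244 and 117 were high in *Ly6c2* and 156, 149 and 141 low in it. A small class named from *Gpnmb* and its companions held 111, 158 and 70 cells. The next 2 genes are among the markers that named these classes, so their levels describe the classes and do not check the names. *Gata6*, the transcription factor of large peritoneal macrophages, had 88.8, 44.7 and 57.4 CPM in the peritoneal-like class and at most 0.538 in the C1q class, while *Ms4a7* had 1038, 1135 and 839 CPM in the C1q class and at most 3.48 in the peritoneal-like class. The peritoneal-like class of Aoah-/- replicate 3 rests on 13 cells with 89453 UMIs, so its values carry wide intervals. In the C1q class the median cell had 1722.5, 4906.5 and 1008 UMIs, highest in the library with no barcode under 1672 UMIs.

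**Figure D1:**
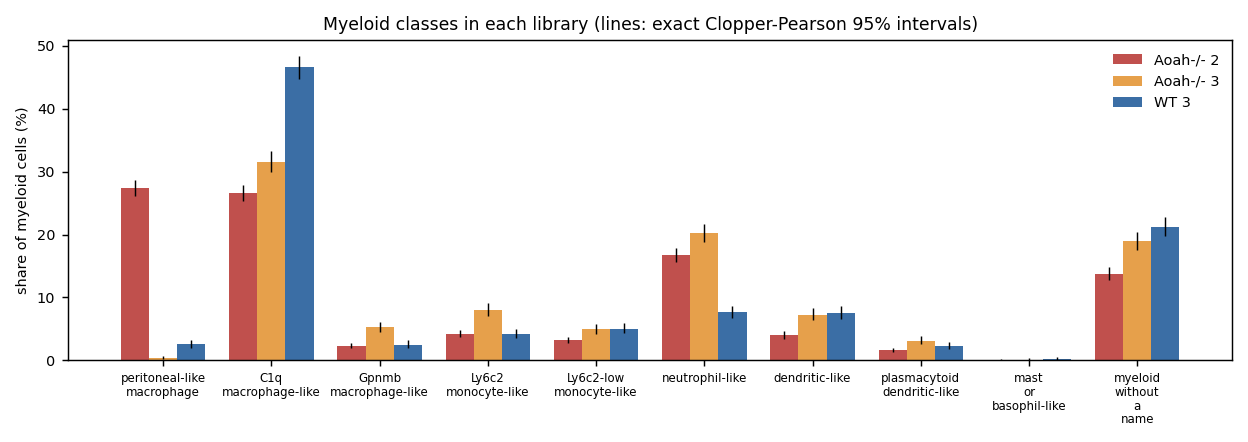
Share of the myeloid cells of each library (vertical axis, %) in each class (horizontal axis), with bars for the 3 libraries and exact Clopper-Pearson 95% intervals. Peritoneal-like macrophages are 0.430% of the cells in 1 Aoah-/- mouse and 27.4% in the other, and the C1q class is largest in WT at 46.6%. Of the WT cells of that class, 770 lay in a subcluster with a median of 693 UMIs, against 58 in Aoah-/- replicate 3, which has no barcode under 1672 UMIs.

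Members with a mean of 20 CPM or more in a named class had the same highest class in all 3 mice. For *Mrc1*, however, the WT mouse did not separate the C1q class from the class named from *Gpnmb* beyond counting error. *Timd4* and *Arg1* belonged to peritoneal-like macrophages, *Mrc1* and *Cd81* to the C1q class, *Chil3* to Ly6c2 monocyte-like cells, and *Retnla* had its highest level in the class named from *Gpnmb*. *Nos2* had at most 2.70 CPM in any myeloid class, and *Folr2*, *Lyve1* and *Cd163* were low in the named classes but high in 1 unnamed cluster of 19 cells. No named class carried the whole set of M2-like genes.

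**Figure D2:**
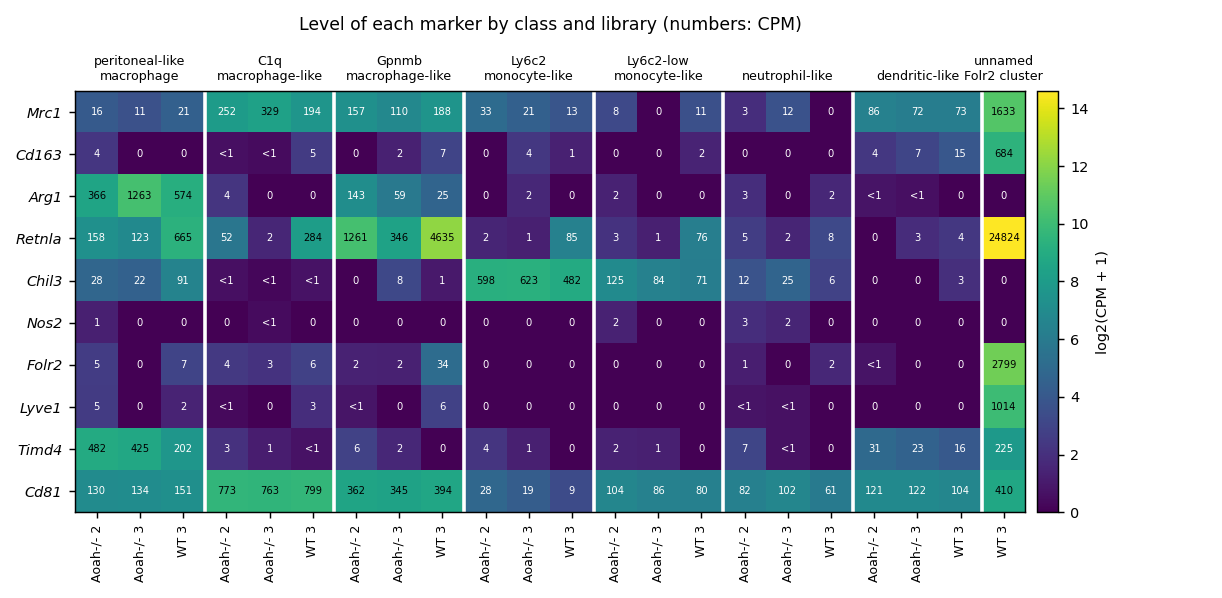
Heat map of the 10 members (rows) in the myeloid classes of each library (columns), coloured by log2(CPM + 1) with the CPM printed in each cell; the last column is the unnamed cluster of the WT mouse that carries *Folr2*. *Timd4* and *Arg1* stand out in peritoneal-like macrophages, *Mrc1* and *Cd81* in the C1q class, *Chil3* in Ly6c2 monocyte-like cells, and *Nos2* is at or near 0 throughout. In the WT mouse *Mrc1* is nearly as high in the class named from *Gpnmb* as in the C1q class.

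*Timd4* (chromosome 11, 46810800 to 46844332, plus strand, on GRCm38 like all positions here) had 482 (467 to 497), 425 (301 to 583) and 202 (167 to 242) CPM in peritoneal-like macrophages. Both Aoah-/- mice lay above the WT mouse, and their intervals did not reach the WT interval. On the log2 scale, the mean of the Aoah-/- mice exceeded the WT level by 1.16 (SD 0.13 between the Aoah-/- libraries), and log2 ratios below are of the same kind. The 10 markers of C1q macrophages summed to 15010, 16679 and 28634 CPM in this class, so their sum was higher in its WT cells. Not every marker differed, since *Ms4a7* had 3.41, 0 and 3.48 CPM. The part of the higher sum in the *Timd4* difference was not tested. The gene was spread widely over the class in Aoah-/- replicate 2, with a UMI in 1037 of 1320 cells, against 10 of 13 cells in Aoah-/- replicate 3 and 27 of 72 in the WT mouse. After each cell was thinned to 1000 UMIs, 38.1% (35.4 to 40.8), 23.1% (5.04 to 53.8) and 19.4% (11.1 to 30.5) of the cells had a *Timd4* UMI, and T lymphocyte-like cells had at most 0.251%. The thinned share thus separates Aoah-/- replicate 2 from the WT mouse, while that of Aoah-/- replicate 3, from 3 of 13 cells, is too uncertain to be placed. Among the other named classes *Timd4* was low: dendritic-like cells came next with 31.0, 23.4 and 15.8 CPM, and the C1q class had 3.23, 1.28 and 0.608. Outside the named classes, the cluster of 19 cells described below also carried *Timd4*.

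*Arg1* (chromosome 10, 24915221 to 24927484, minus strand) shared the class but not the order of the mice. Its level in peritoneal-like macrophages was 366 (353 to 380), 1263 (1041 to 1519) and 574 (514 to 640) CPM, so the Aoah-/- mice lay on both sides of the WT mouse. In Aoah-/- replicate 3 a single cell held 83 of the 113 UMIs, and without the highest cell of each library the levels were 362, 398 and 532 CPM, with both Aoah-/- mice below. After thinning, 20.9% (18.7 to 23.2), 23.1% (5.04 to 53.8) and 34.7% (23.9 to 46.9) of the cells had an *Arg1* UMI, against at most 0.551% of T lymphocyte-like cells. In the class named from *Gpnmb*, *Arg1* had 143, 58.9 and 25.2 CPM, a log2 ratio of 1.96 (SD 0.90), but only 12, 16 and 4 cells had a UMI there and 1 cell of Aoah-/- replicate 2 held 107 of its 178 UMIs. The C1q class held 14, 0 and 0 *Arg1* UMIs, and monocyte-like cells at most 3. Arginase expression on day 14 was thus found in peritoneal-like macrophages and in a few further cells, and it was at or near 0 in the C1q class.

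*Mrc1* (chromosome 2, 14229392 to 14332057, plus strand) had its highest level among the named classes in the C1q class, with 252 (236 to 269), 329 (314 to 344) and 194 (179 to 209) CPM. Both Aoah-/- mice lay above the WT mouse with intervals that did not overlap it, and the log2 ratio of the means was 0.58 (SD 0.27). The class joined 3 subclusters that the libraries filled unequally, and its values were read within each after the class values had been seen. One of them, with a median of 693 UMIs and 19.4% mitochondrial UMIs per cell, held 628, 58 and 770 of the cells, and *Mrc1* had 136 (107 to 170), 218 (153 to 300.2) and 124 (98.4 to 154) CPM there. In the other two, with medians of 5941 and 3864 UMIs, *Mrc1* had 294 (270.1 to 320.1), 299 (280.0 to 319) and 182 (162 to 205) CPM, and 242 (216 to 270.0), 376 (351 to 402) and 252 (223 to 283) CPM. Thus both Aoah-/- mice stood clear of the WT mouse in 1 subcluster, while in the other two Aoah-/- replicate 2 overlapped with it, as did Aoah-/- replicate 3 in the one with the fewest UMIs. The part of the unequal filling in the difference over the class was not tested. Summed markers of the proximal tubule had 2404, 1625 and 2505 CPM in the class, and the part of such RNA in the *Mrc1* difference was not tested. The gene did not rest on single cells there, since the 10 highest cells held 13.4%, 8.87% and 16.0% of its UMIs. Without thinning, 30.7%, 59.5% and 22.0% of the C1q cells had an *Mrc1* UMI. Thinned to 1000 UMIs per cell, which left out 520, 0 and 647 cells, the shares were 17.7% (15.1 to 20.6), 24.6% (21.9 to 27.5) and 17.7% (14.8 to 20.8), against at most 0.144% of T lymphocyte-like cells. The cells kept by thinning had medians of 4056, 4906.5 and 3749.5 UMIs, and those of the T lymphocyte-like cells were 2615, 3054 and 3058. Averaged over all possible thinnings the shares were 19.5%, 25.1% and 16.6%, so that Aoah-/- replicate 3 stands above the WT mouse and the place of Aoah-/- replicate 2 depends on the draw. With classes assigned from the marker UMIs of each cell, the difference in thinned shares turned to -1.32 percentage points, while the difference in level stayed positive. The class named from *Gpnmb* had 157, 110 and 188 CPM and dendritic-like cells 86.0, 72.3 and 73.3, so in neither did both Aoah-/- mice lie above the WT mouse. Monocyte-like cells had 24.5 (17.6 to 33.3), 14.2 (9.57 to 20.2) and 12.1 (6.79 to 20) and peritoneal-like macrophages 16.4, 11.2 and 20.9 CPM, the latter from 135, 1 and 12 UMIs. The order of classes, C1q first, then the *Gpnmb* class, dendritic-like cells and Ly6c2 monocyte-like cells, held without overlap between the ranges of the 3 mice. Within the WT mouse, however, the level of the *Gpnmb* class, 188 CPM, lay inside the counting interval of the C1q class, 179 to 209.

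*Cd81* (chromosome 7, 143052739 to 143067934, plus strand) gave the most even levels of the set. Its C1q level was 773 (745 to 802), 763 (740.1 to 787) and 799 (769 to 830) CPM, a log2 ratio of -0.06 (SD 0.01), and the intervals of all 3 mice overlapped. The thinned shares of C1q cells with a UMI were 51.2%, 52.5% and 52.9%, against 4.46%, 4.85% and 3.85% of T lymphocyte-like cells. The *Gpnmb* class followed with 362, 345 and 394 CPM and peritoneal-like macrophages with 130, 134 and 151, while dendritic-like cells had 121, 122 and 104, Ly6c2-low monocyte-like cells 104, 85.7 and 79.6, and Ly6c2 monocyte-like cells 27.9, 19.1 and 8.95. The log2 ratios in these 2 macrophage classes were -0.16 and -0.20. *Cd81* is not confined to macrophages, since proximal tubule-like cells held 36.4%, 32.9% and 46.7% of its UMIs and endothelial-like cells reached 966 to 1095 CPM. Among myeloid cells the ranges of the 3 macrophage classes lay above those of both monocyte classes, by a small margin between peritoneal-like macrophages and Ly6c2-low cells.

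*Folr2*, *Lyve1* and *Cd163*, the receptors of perivascular and other long-lived tissue macrophages, were low in the named classes. In the C1q class *Folr2* (chromosome 7, 101839988 to 101857194, minus strand) had 4.30, 3.48 and 6.08 CPM, *Lyve1* (chromosome 7, 110850607 to 110863239, minus strand) 0.269, 0 and 2.74, and *Cd163* (chromosome 6, 124304656 to 124330527, plus strand) 0.538, 0.367 and 4.87. In the *Gpnmb* class of the WT mouse *Folr2* reached 34.3 CPM against 1.61 and 1.52, but 4 cells held all 34 UMIs and 1 of them 19. The 20 *Folr2* UMIs of the WT C1q class lay in 8 cells. In Aoah-/- replicate 2, peritoneal-like macrophages held 41 UMIs of *Folr2* in 30 cells, 40 of *Lyve1* in 6 cells and 32 of *Cd163* in 23 cells, or 4.99, 4.87 and 3.90 CPM. Dendritic-like cells had 4.23, 7.13 and 14.7 CPM of *Cd163*.

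High levels of these 3 genes were found in an unnamed cluster of 19 cells, of which 0 came from Aoah-/- replicate 2, 2 from Aoah-/- replicate 3 and 17 from the WT mouse. It was led by *Retnla*, *Cd209f*, *Ccl8*, *Folr2*, *Fcna*, *F13a1*, *Cd209g*, *Lyve1*, *Cd209d* and *Cbr2*, although none of the 10 members was used to form it. Its best match among the marker lists was that of C1q macrophages, but it was left out of the C1q class. The C1q levels in this section therefore do not include its cells. In the 17 WT cells *Folr2* had 2799 (2513 to 3110) CPM, *Lyve1* 1014 (844 to 1207) and *Cd163* 684 (546 to 845). *Mrc1* had 1633 (1416 to 1874) CPM there, above its level in the C1q class of the same mouse, and *Timd4* had 225 (150 to 326). *Retnla* reached 24824 (23956 to 25716) CPM, with a UMI in 16 of the 17 cells and a median of 188 per cell. *Arg1*, *Chil3* and *Nos2* had 0 UMIs among the 124313 of these cells. The cells held 7578 CPM of *C1qa* and 0 UMIs of *Gata6* and of *Ly6c2*, their median was 6561 UMIs over all 19 cells, and Scrublet called 0 of them doublets. This cluster contained 61.9% of all *Folr2* UMIs of the WT mouse, 72.0% of *Lyve1*, 58.2% of *Cd163*, 31.1% of *Retnla*, 15.5% of *Mrc1* and 13.7% of *Timd4*. Cells with UMIs of *Folr2*, *Lyve1*, *Cd163* and *Mrc1* together numbered 3, 0 and 11 in all kept cells, and 9 of the 11 lay in the cluster. Cells with *Folr2*, *Lyve1* and *Timd4* together numbered 6, 0 and 14, of which 12 in the WT mouse lay in the cluster and 5 in Aoah-/- replicate 2 in myeloid cells outside the cluster and the C1q class. With 1 WT library, a difference between genotypes cannot be told apart from a difference between these mice or between the pieces of tissue taken.

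*Retnla* (chromosome 16, 48842551 to 48844461, plus strand) was lower in both Aoah-/- mice than in the WT mouse in all 4 classes assessed, and also without regard to class. Over all kept cells, whatever their class, it had 25.7 (24.8 to 26.6), 9.75 (9.23 to 10.3) and 79.6 (78.0 to 81.2) CPM. Few cells carried it. Myeloid cells with at least 50 *Retnla* UMIs numbered 13, 6 and 41, which is 0.270% (0.144 to 0.460), 0.199% (0.0729 to 0.432) and 1.47% (1.06 to 1.99) of the myeloid cells, and in the WT mouse the 42 kept cells at this level held 91.4% of the UMIs of the gene. At this threshold both Aoah-/- mice lay below the WT mouse by more than the counting error. With at least 10 UMIs the shares were 1.31% (1.01 to 1.67), 0.397% (0.205 to 0.693) and 2.12% (1.62 to 2.72), and the intervals of Aoah-/- replicate 2 and the WT mouse overlapped. With at least 1 UMI they were 4.91% (4.32 to 5.56), 1.72% (1.29 to 2.25) and 4.67% (3.91 to 5.52), so that Aoah-/- replicate 2 no longer lay below the WT mouse. Of the cells with at least 10 UMIs, 39, 1 and 9 were peritoneal-like, 17, 8 and 24 belonged to the *Gpnmb* class, and 6, 3 and 20 were myeloid cells without a name. These thresholds were chosen after the values had been seen.

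Class by class, *Retnla* had 158 (150 to 167), 123 (61.4 to 220.0) and 665 (600.0 to 735) CPM in peritoneal-like macrophages, a log2 ratio of -2.23 (SD 0.26). All 11 UMIs of Aoah-/- replicate 3 lay in 1 of its 13 cells, whereas 160 of 1320 cells had a UMI in Aoah-/- replicate 2 and 18 of 72 in the WT mouse. The higher sum of C1q macrophage markers in the WT cells, given with *Timd4*, moved with this difference too, and its part in the *Retnla* difference was not tested. The C1q level of *Retnla* was 51.9 (44.8 to 59.8), 2.02 (1.01 to 3.61) and 284 (266 to 303) CPM, a log2 ratio of -3.35 (SD 2.92). There 1 cell held 171 of the 193 UMIs of Aoah-/- replicate 2 and 1 cell held 731 of the 933 of the WT mouse. In the subcluster with the fewest UMIs per cell, that cell of Aoah-/- replicate 2 set the order, with 346, 5.89 and 56.6 CPM. The other subclusters had 1.08, 0.993 and 495 CPM, and 0, 3.09 and 123 CPM. Their WT levels also rested on single cells, which held 731 of 762 UMIs in the former and 126 of 134 in the latter. Without the highest cell of each library the levels of the class were 5.93, 1.47 and 61.7 CPM, and T lymphocyte-like cells, taken as background, had 2.32, 1.82 and 2.30. Monocyte-like cells had 2.39 (0.652 to 6.13), 1.42 (0.292 to 4.14) and 80.9 (65.8 to 98.4) CPM, a log2 ratio of -4.82 (SD 0.35). That WT level came from 6 of 258 cells, with 56 of the 57 UMIs of the Ly6c2 monocyte-like cells in a single cell and 40 of the 43 of the Ly6c2-low cells in another. Without the highest cell of each library the levels were 1.80, 0.949 and 36.2 CPM. In 6 alternatives that reassigned cells to classes (other cell filters, doublet removal, resolution or component numbers) the log2 ratio was between -0.59 and -0.03, so the monocyte difference rests on where these single cells were placed.

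In the class named from *Gpnmb*, *Retnla* had 1261 (1199 to 1325), 346 (320 to 373) and 4635 (4502 to 4771) CPM, a log2 ratio of -2.53 (SD 1.32). Cells with a UMI numbered 29 of 111, 29 of 158 and 30 of 70, and the 10 highest cells held 84.9%, 92.4% and 80.8% of the UMIs. After thinning, 20%, 11.4% (6.89 to 17.4) and 34.3% (23.3 to 46.6) of the cells had a UMI, against at most 0.321% of T lymphocyte-like cells. The cells with *Retnla* were, however, not those with *Gpnmb*. Of the 49 cells of the class with at least 10 *Retnla* UMIs, 0 had a *Gpnmb* UMI, against 76 of the 251 cells without *Retnla*. They were higher in *Lyz1* (2195 against 230.3 CPM), *Fn1* (2464 against 613), *Ear2* (834 against 146), *Ccr2* (891 against 338) and *Mrc1* (321 against 103), and lower in *Spp1* (85.8 against 3452), *Trem2* (57.8 against 589) and *C1qa* (1024 against 2396). These pairs of values describe cells that were picked by their *Retnla* UMIs. When the resolution of the clustering was doubled, 48 of the 49 cells moved to an unnamed cluster of 68, 88 and 54 cells, with 2766, 1006 and 7079 CPM of *Retnla* and 0, 0 and 1.53 CPM of *Gpnmb*. Both Aoah-/- mice remained below the WT mouse in that cluster. In the *Gpnmb* class itself the direction turned with a minimum of 500 genes per cell or with all barcodes, where the log2 ratio became 5.47 and 5.75. With that minimum, only 1.82%, 0.758% and 0% of the cells of the class had a *Retnla* UMI after thinning, so the result depends on which cells the class holds.

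**Figure D3:**
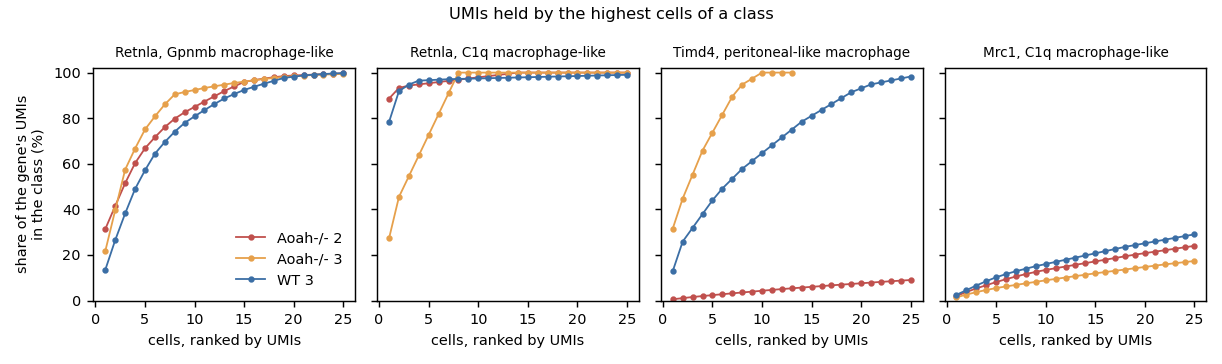
Cumulative share of a gene's UMIs in a class (vertical axis, %) held by its highest cells, ranked by UMIs (horizontal axis), for the 3 libraries. *Retnla* in the C1q class is held mostly by 1 cell in Aoah-/- replicate 2 and WT, whereas the 10 highest cells hold at most 16.0% of *Mrc1* in the same class.

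*Chil3* (chromosome 3, 106147554 to 106167564, minus strand) was a gene of monocytes in these kidneys. Ly6c2 monocyte-like cells had 598 (553 to 646), 623 (582 to 665) and 482 (431 to 537) CPM, and Ly6c2-low cells 125, 84.2 and 70.8. Both kinds summed gave 430 (399 to 462), 444 (416 to 474) and 294 (264 to 326) CPM, a log2 ratio of 0.57 (SD 0.03), with both Aoah-/- mice above the WT mouse and intervals that did not overlap it. The ratio of Ly6c2 to Ly6c2-low cells, 204 to 156, 244 to 149 and 117 to 141, also moved with this difference, and within Ly6c2 monocyte-like cells alone the intervals of the Aoah-/- mice still lay above that of the WT mouse. After thinning, 28.7%, 29.1% and 25.9% of the Ly6c2 monocyte-like cells had a UMI, with intervals that overlapped. In peritoneal-like macrophages the order was the opposite, with 27.8 (24.3 to 31.6), 22.4 (2.71 to 80.8) and 90.5 (67.6 to 119) CPM and a log2 ratio of -1.81 (SD 0.21). That value of Aoah-/- replicate 3 came from 2 UMIs, and its interval overlapped that of the WT mouse. The C1q class held 2, 1 and 2 UMIs. *Chil3* has a close paralog, *Chil4*, which reached 0.676 CPM in its highest class and library, and how reads that match both genes were counted is not given in the sources used here.

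*Nos2* (chromosome 11, 78920787 to 78960254, plus strand) was rare in macrophages. In the macrophage- and monocyte-like classes together 13, 2 and 0 UMIs were counted, which is 0.876, 0.208 and 0 CPM, and the count of 0 in the WT mouse allows up to 0.493 CPM (3 counts). Its highest level was in endothelial-like cells, with 10.3, 7.87 and 7.84 CPM, and these held 58.0%, 62.0% and 50% of its UMIs. Of the 13 UMIs of Aoah-/- replicate 2, 12 lay in 5 of its 1320 peritoneal-like macrophages (1.46 CPM, 0.755 to 2.55), against 0 of 2126 T lymphocyte-like cells of that library. The 13 and 72 peritoneal-like cells of the other libraries held 0 UMIs, which allows up to 33.5 and 5.22 CPM, so a difference of this size from those libraries was not detectable at this depth.

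**Figure D4:**
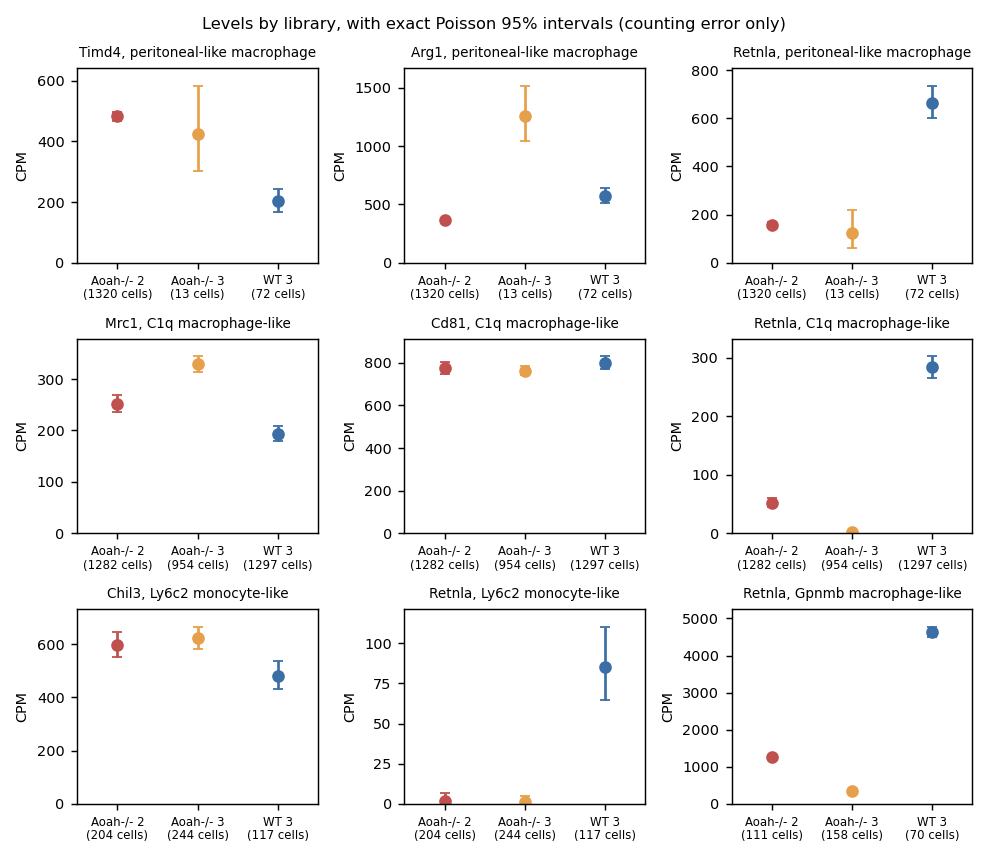
Level in CPM (vertical axis) of 6 members in the class named above each panel, for each library (horizontal axis, with its number of cells), with exact Poisson 95% intervals. *Timd4* is higher in both Aoah-/- mice than in the WT mouse, *Retnla* is lower in every panel, *Mrc1* is higher by a smaller margin, and *Cd81* is level.

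To set these differences against the rest of the genome, a gene was counted as past the fold when both Aoah-/- libraries lay 1.5-fold or more above the WT library, or both as far below it (1 CPM added throughout). Only genes that reached 20 CPM in some library of that class were assessed. A gene that reached it only in the WT library, or only in the Aoah-/- libraries, was thereby favoured for a call with that side high. In peritoneal-like macrophages 6 members could be assessed: *Timd4* was past the fold higher, and *Retnla* and *Chil3* lower. Of all 6485 genes, 13% were past it higher and 3.02% lower, so that 1 of 6 members on the higher side is close to the share of all genes. In Aoah-/- replicate 3, however, 20 CPM lay below the 33.5 CPM that 3 counts make in this class. Genes with fewer than 3 counts there could thus enter, and their part in the 13% was not tested. *Timd4* itself had 38 UMIs there. *Chil3*, called lower, had fewer than 3, and its interval there overlapped that of the WT mouse, as given above. In the C1q class 0 of 3 members were past it higher and 1, *Retnla*, lower, against 3.27% and 0.421% of 5230 genes. In monocyte-like cells 0 of 4 were higher and 1, *Retnla*, lower, against 3.09% and 1.32% of 5699 genes. In the *Gpnmb* class 1 of 5 was higher, *Arg1*, and 2 lower, *Retnla* and *Folr2*, against 6.53% and 2.22% of 5682 genes. *Retnla* in monocyte-like cells and *Folr2* in the *Gpnmb* class reached 20 CPM in the WT library only, so the filter favoured these calls. The median log2 ratio of the members assessed was -0.38, -0.06, 0.39 and -0.49 in the 4 classes, beside 0.17, 0.16, 0.01 and 0.08 over all genes. *Mrc1* reached 20 CPM only in the WT library in peritoneal-like macrophages and only in Aoah-/- replicate 2 in monocyte-like cells. Except in the C1q class, the medians of the members thus include genes that the filter favoured on 1 side. Its part in these medians was not tested. Only 3 members, *Mrc1*, *Cd81* and *Retnla*, were assessed in all 4 classes, and of these *Retnla* alone was past the fold in each. The share of all genes past it in all 4 was not counted. In the C1q class and monocyte-like cells the WT level of *Retnla* rested mostly on very few cells, as given above.

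When macrophage- and monocyte-like classes were pooled, the differences in class shares entered the levels. *Timd4* then had 268, 5.40 and 19.4 CPM, *Arg1* 216, 24.1 and 58.3, *Mrc1* 88.2, 212 and 140, *Chil3* 63.9, 99.6 and 68.6, and *Cd81* 302, 513 and 518. For *Timd4*, *Arg1*, *Mrc1* and *Chil3* the Aoah-/- mice lay on both sides of the WT mouse. With each of the 5 classes given equal weight, *Timd4* had 99.4, 86.2 and 40.5 CPM and *Mrc1* 93.5, 94.2 and 85.2, so that the spread between the Aoah-/- mice nearly vanished for both. *Chil3* had 150, 147 and 129 CPM. *Arg1* had 103, 265 and 120 CPM, so its Aoah-/- mice stayed on both sides of the WT mouse, in reversed order. At equal weights the 13 peritoneal-like cells of Aoah-/- replicate 3 counted as much as any other class. *Retnla* had 207 (199 to 214), 73.3 (68.0 to 78.9) and 987 (963 to 1013) CPM over the pooled cells and 295, 94.7 and 1149 at equal weights, a log2 ratio of -2.81 (SD 1.05) and -2.55. It was the 1 of 6 members past the fold on the lower side, against 0.35% of 5714 genes, while 0 of 6 were past it on the higher side, against 1.07%. Without the peritoneal-like cells, *Mrc1* had 177, 214 and 152 CPM and *Timd4* 3.77, 1.47 and 0.363.

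**Figure D5:**
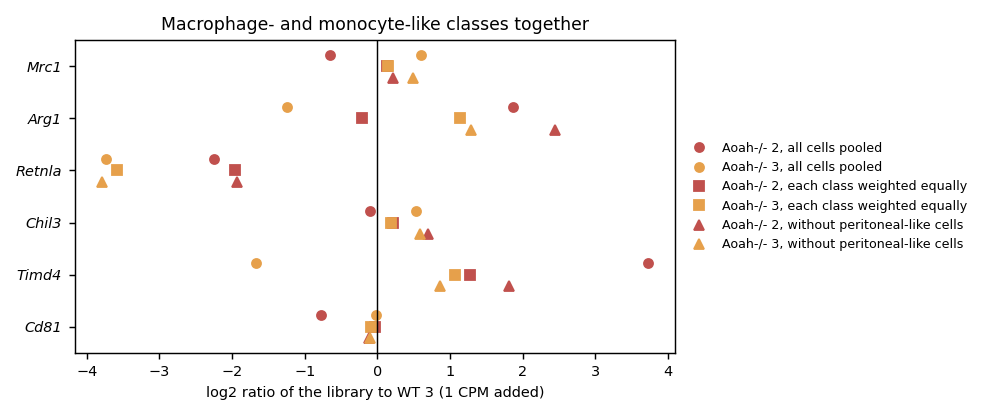
Log2 ratio of each Aoah-/- library to the WT library (horizontal axis, 1 CPM added) for the members with at least 20 CPM, over all macrophage- and monocyte-like cells pooled, with the classes weighted equally, and without peritoneal-like cells. The Aoah-/- mice fall on both sides of 0 for *Timd4*, *Arg1*, *Mrc1* and *Chil3* when pooled, and *Retnla* lies below 0 in every setting shown.

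Further genes of each programme were read from lists, as counts past the fold with the median log2 ratio. In peritoneal-like macrophages, 7 of 13 assessed genes of the interferon-gamma and LPS response were past the fold higher and 0 lower (median 0.81), while 0 of 11 interleukin-4 response genes were past it in either direction (median 0.34). Among the former, the chemokine gene *Cxcl10* had 425, 559 and 120 CPM, the cytokine gene *Il6* 1109, 1766 and 423, *Ptgs2*, which makes prostaglandins, 668, 1263 and 444, and the formyl peptide receptor gene *Fpr2* 80.5, 89.4 and 40.0. Of 17 tissue residence genes in this class, 1 was higher (*Gas6*, 17.9, 22.4 and 5.22 CPM) and 4 were lower: *Pf4* (939, 816 and 2794), *C1qb* (1621, 2001 and 3647), *Igf1* (21.1, 33.5 and 54.0) and *C1qc* (1737, 1744 and 2773). Of these 4, *C1qb* and *C1qc* are themselves among the C1q macrophage markers whose sum, given above, was higher in the WT cells. *Pf4* is not among them and moved with that sum, whose part was not tested. All of these comparisons rest on 13 cells of Aoah-/- replicate 3 and 72 of the WT mouse. Of all genes in this class, 13% were past the fold higher and 3.02% lower (median 0.17). In this class 3 counts make 33.5 CPM in Aoah-/- replicate 3 and 5.22 CPM in the WT mouse. *Gas6* therefore had at most 3 counts in each of these 2 libraries, and it reached 20 CPM only in Aoah-/- replicate 3. *Igf1* likewise had only 3 counts in Aoah-/- replicate 3.

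In the C1q class, 1 of 11 interleukin-4 response genes was past the fold higher, the scavenger receptor gene *Msr1* with 44.4, 52.8 and 18.9 CPM, and 0 of 12 genes of the interferon-gamma and LPS response (median -0.11). Of 15 residence genes, 3 were higher and 0 lower (median 0.39): the iron exporter gene *Slc40a1* (21.5, 21.3 and 9.13 CPM), *Igf1* (87.4, 110 and 48.1) and *Gas6*, a bridge between dying cells and their receptors (62.7, 65.1 and 39.5). These lay on the same side as *Mrc1*. Over all genes of the C1q class, 3.27% were past the fold higher and 0.421% lower (median 0.16). In monocyte-like cells, 1 of 9 interleukin-4 response genes (*Clec10a*, 36.5, 26.5 and 16.2 CPM), 1 of 13 interferon-gamma and LPS response genes (*Il6*, 20.9, 17.5 and 8.09) and 1 of 11 residence genes (*C1qc*, 38.3, 33.6 and 20.2) were past the fold, all higher. The shares of all genes there were 3.09% higher and 1.32% lower (median 0.01). In the *Gpnmb* class, 4 of 14 residence genes were past the fold higher and 0 lower. By size these were *Gas6*, *Id3*, *Igf1* and *Mertk*, a receptor for dying cells (28.1, 27.9 and 11.1 CPM for *Mertk*). The make-up of this class differed between libraries. It held 17, 8 and 24 cells with at least 10 *Retnla* UMIs, and its C1q macrophage markers summed to 19468.5, 21042.7 and 11156.8 CPM. The part of this in the calls of the class was not tested. Of 13 interferon-gamma and LPS response genes there, 2 were higher, *Cd38* (20.1, 30.5 and 11.1 CPM) and the chemokine gene *Ccl5* (150, 124 and 78.6 CPM), and 1 lower, *Cxcl9* (8.04, 41.6 and 233 CPM). Of 14 interleukin-4 response genes, 1 was higher, *Msr1* (141, 137 and 77.6 CPM), and 1 lower, *Irf4* (20.9, 17.8 and 46.4 CPM). Across all genes of the *Gpnmb* class, 6.53% were past the fold higher and 2.22% lower (median 0.08). Several genes reached the 20 CPM filter in Aoah-/- libraries only, which favoured their calls. Among the genes given with values, these were *Msr1* and *Slc40a1* in the C1q class, *Clec10a* and *Il6* in monocyte-like cells, and *Mertk* and *Cd38* in the *Gpnmb* class.

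The genes whose pattern came closest to a member were sought over 23 points (classes in libraries with at least 50 cells) and 2826 genes, by Pearson's r of log2(CPM + 1). The points share libraries, and r is given as a description. *Mrc1* was closest to *Axl* (0.94), *Cxcl16* (0.93) and *Tmem176a* (0.89), and *Cd81* to *Dab2* (0.88) and *Stab1* (0.85), all highest in the C1q class. *Timd4* was closest to *Ptgis* (0.86), *Vsig4* (0.81) and *Prg4* (0.81), and *Arg1* to *Fcna* (0.87), *Ecm1* (0.86) and *Il6* (0.84), all highest in peritoneal-like macrophages. *Chil3* was closest to *Camkk2* (0.89), *Thbd* (0.89) and *Samhd1* (0.87). *Retnla* was closest to *Bag1* (0.80), *Lyz1* (0.79) and *Hexa* (0.78), each highest in the *Gpnmb* class, and *Folr2*, read only in the named classes, to *C1qc*, *C1qb* and *C1qa* (0.80, 0.80 and 0.79). Outside the *Gpnmb* class of the WT mouse, *Folr2* had at most 6.96 CPM in these classes, so its r rests on few counts. *C1qa*, *C1qb* and *C1qc* are also among the markers that named the C1q class, as *Prg4* is for the peritoneal-like class.

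The paralogs of the members are given in the class where each was highest. *Retnlg*, a neutrophil gene of the *Retnla* family, had 1823, 1746 and 2704 CPM in neutrophil-like cells, with both Aoah-/- mice below the WT mouse as for *Retnla*. *Arg2* was also highest in neutrophil-like cells, with 280, 295 and 294 CPM, and *Chil1* had 101, 97.0 and 75.6 there. *Nos3*, the endothelial nitric oxide synthase, had 110, 111 and 127 CPM in endothelial-like cells, and *Folr1*, which recovers folate from the filtrate, had 386, 385 and 405 in proximal tubule-like cells. The scavenger receptor gene *Stab1* had 111, 133 and 77.9 CPM in the C1q class, in the order of *Mrc1*.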

How the data were processed

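Cells of perfused kidneys were released with collagenase IV and DNase I, filtered and freed of erythrocytes, and libraries were made with a Chromium 3′ v2 kit, per the labels. The authors deposited raw UMI counts per gene and called cell barcode; their notes name Cell Ranger 3.1.0, STAR, Seurat 4.2.0 and mm10, while the matrix headers name Cell Ranger 6.1.2. The counts carry no normalization. The 10 members, the lists and the markers were chosen with earlier results of these data known.

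Barcodes entered when 200 genes or more were detected and mitochondrial UMIs did not exceed 50%. All cells, then the myeloid cells, were clustered with scanpy 1.11.5 (2000 variable genes, 50 and 30 principal components, 15 neighbours, Leiden resolution 1, igraph 0.11.9), leaving 22 genes, the members among them, out of the clustering. A subcluster was named only when its 5 best markers averaged a log2 fold of at least 2.5 with 3 markers at 2-fold or more. Not all with such an average were named. The *Folr2* cluster averaged 4.16 for C1q macrophage markers and stayed unnamed. This naming rule was written after the clusters had been seen. Doublets were kept: Scrublet called 544, 0 and 201 cells in Aoah-/- replicates 2 and 3 and WT, so it did not work in Aoah-/- replicate 3. For every class of each library UMIs were added up and scaled to 1000000, with exact Poisson or Clopper-Pearson 95% intervals (scipy 1.17.1), which cover counting error only. No p-value is given, since the WT group has 1 library. Thinning to 1000 UMIs per cell was without replacement, and log2 ratios use 1 added CPM. The genes named are the 10 members, list genes past the fold (at most 4 per list, class and direction, by size), the 3 genes most like each member of at least 20 CPM (1 such gene is not reported here), and paralogs in their highest class. The scripts were tested on simulated counts. Alternatives were other cell filters, doublet removal, resolutions, component numbers, separate clustering, class assignment per cell, denominators, pseudocounts, folds, thinning depths and libraries left out; leaving out the highest cell, cells under 1000 UMIs or adding the *Folr2* cluster, and equal class weights, were added after seeing the data. Positions are from GENCODE M21 on GRCm38.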

Additional observations from a re-analysis of the deposited data

Results flagged for a closer look

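*Mrc1* and *Chil3* differed from the WT library in opposite directions in monocyte-like cells and in peritoneal-like macrophages. For *Mrc1*, both Aoah-/- libraries lay above the WT library in monocyte-like cells (log2 ratio 0.63) and below it in peritoneal-like macrophages (-0.56), a difference of 1.20 between the classes. *Mrc1* reached 20 CPM only in Aoah-/- replicate 2 in monocyte-like cells and only in the WT library in peritoneal-like macrophages. The filter therefore favoured both of these directions. In monocyte-like cells the *Mrc1* intervals of both Aoah-/- libraries also overlapped that of the WT library. For *Chil3*, both lay above in monocyte-like cells (0.57) and below in peritoneal-like macrophages (-1.81), a difference of 2.38. Neither difference was tested, since there is 1 WT library, and in peritoneal-like macrophages Aoah-/- replicate 3 contributed 1 UMI of *Mrc1* and 2 of *Chil3*. Of these directions, 3 turned under an alternative: the *Mrc1* value turned to -0.83 in monocyte-like cells with classes from the marker UMIs of each cell and to 1.34 in peritoneal-like macrophages with all barcodes, and the *Chil3* value in peritoneal-like macrophages turned to 0.12 without the top Scrublet scores.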

How the results depend on the processing

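*Timd4* stayed higher in peritoneal-like macrophages in 16 of 16 alternatives (log2 ratio 0.75 to 1.25), and *Mrc1* in the C1q class likewise (0.24 to 0.81). *Retnla* stayed lower in peritoneal-like macrophages (-2.89 to -1.10), the C1q class (-7.28 to -0.98) and the pooled cells (-5.26 to -0.86) in 16 of 16 each, and in monocyte-like cells in 15 of 15 (-5.08 to -0.03). In the *Gpnmb* class it turned to 5.47 with 500 genes per cell and 5.75 with all barcodes, and its share of cells from -18.6 points to 1.29 and 1.56, or shrank to -2.81 (double resolution) and -0.977 (per-cell markers). *Chil3* in peritoneal-like macrophages turned to 0.12 without the top Scrublet scores. The *Mrc1* share in the C1q class, 3.48 points, became -1.32 with per-cell markers, 8.81 at 2000 UMIs and 23.2 without thinning, where that of *Cd81* turned to 16.0.

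The C1q share of myeloid cells, -17.5 points, became -12.0 (20% mitochondrial), -9.13 (500 genes), -7.99 (double resolution), -8.53 (per-cell markers) and -9.81 (1000 UMIs), and the monocyte share, 0.973, became -4.51 (500 genes). Members past the fold changed as follows. The share of all genes past it was not counted under these settings, so the counts are given as a description. In peritoneal-like macrophages, 1 higher became 0 with all barcodes or per-cell markers, and 2 lower became 1 with per-cell markers. In the C1q class, 1 lower became 0 (500 genes), 4 (all barcodes, per-cell markers or the *Folr2* cluster added) or 3 (no minimum CPM). In monocyte-like cells, 0 higher became 1 (double resolution, mean of per-cell CPM) or 2 (no minimum CPM), and 1 lower became 0 (20% mitochondrial, 500 genes, all barcodes, no top Scrublet scores, double resolution, fewer components) or 4 (per-cell markers). Pooled, 0 higher became 1 at equal class weights, and 1 lower became 0 (500 genes), 2 (per-cell markers) or 3 (all barcodes, *Folr2* cluster added). Leaving out an Aoah-/- replicate gave 1 to 2 higher in peritoneal-like, 0 to 1 in C1q, 1 in monocyte-like and 1 to 2 in pooled cells, and 2 to 3 lower pooled. With 1 Aoah-/- library left, the rule no longer asked 2 libraries to agree, so these counts cannot be set beside the others. The causes of the changes were not tested.

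Clustering each library alone left no named C1q class in WT, no monocyte class in WT and Aoah-/- replicate 2, and no *Gpnmb* class in Aoah-/- replicate 3, so it gave no value there. The peritoneal-like class of Aoah-/- replicate 3 has 13 cells, and the WT group 1 library. No paired analysis was possible because the groups share fewer than 2 replicate numbers.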
